A study of Homo sapiens with 4 samples.

Results

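PLAU, PLAUR, PLAT and SERPINE2, core genes of plasminogen activation at the cell surface, were followed in cells labelled MDA-MB-453 with normal or reduced TMEM9. They were selected by their symbols and are 4 of the 48162 genes in the table of raw counts. MDA-MB-453 is an established line from human breast carcinoma. RNA was sequenced from 2 wild-type libraries (WT) and 2 libraries of TMEM9 KD cells. TMEM9 is a transmembrane protein found on endosomes and lysosomes. The labels do not say how it was reduced, or whether the knockdown cells are 1 clone or a pool. All 4 members passed the filter on low counts. The comparison asks how these genes differ when TMEM9 is reduced.

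Plasmin is a broad serine protease that dissolves fibrin and degrades matrix proteins, and it is made by cleavage of the circulating zymogen plasminogen. Urokinase (PLAU) and tissue-type plasminogen activator (PLAT) are the proteases that make this cut. Urokinase works largely on the cell surface, held by a lipid-anchored receptor (PLAUR), and the system is long known for its part in invasion of breast tumours. Serpins stop the activators by trapping them in covalent complexes. SERPINE2, protease nexin 1, blocks urokinase, tissue-type activator, plasmin and thrombin.

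The members differ in the DNA just upstream of their transcription starts. These stretches are shown because PLAU moved against PLAUR and SERPINE2, but a link between sequence and direction was not tested. RefSeq windows (GRCh38.p14) were matched for 3 of the 4 members, PLAU, PLAUR and SERPINE2. The 250 bases before each start were searched on both strands for 6 motifs. The AP-1 motif was searched as TGANTCA, the SP1 motif as GGGCGG and the NF-Y motif as CCAAT. The E-box was searched as CACGTG, the TATA box as TATAAA, and NF-kB by its decamer consensus. No match overlapped another in the stretches shown. Capitals mark the matches, and bases are counted upstream from 1 next to the start.
PLAU (chr10:73910882-73911103, plus strand): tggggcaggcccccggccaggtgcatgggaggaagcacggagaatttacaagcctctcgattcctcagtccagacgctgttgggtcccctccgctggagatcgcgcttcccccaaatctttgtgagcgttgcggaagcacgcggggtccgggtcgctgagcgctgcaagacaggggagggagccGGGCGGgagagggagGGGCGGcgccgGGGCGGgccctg
PLAUR (chr19:43670338-43670367, minus strand): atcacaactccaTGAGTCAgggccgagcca
SERPINE2 (chr2:224031479-224031728, minus strand): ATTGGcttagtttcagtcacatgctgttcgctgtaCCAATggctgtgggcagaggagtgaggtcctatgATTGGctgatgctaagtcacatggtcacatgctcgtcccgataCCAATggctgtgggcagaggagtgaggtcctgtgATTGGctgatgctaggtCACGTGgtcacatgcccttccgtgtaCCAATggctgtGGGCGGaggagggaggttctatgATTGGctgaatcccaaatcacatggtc

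The PLAU stretch held 3 SP1 matches, with first bases 66, 51 and 40 upstream of the start, and no match to the other 5 motifs. SP1 matches were present in 42.6% of the 35114 RefSeq windows of this length. The PLAUR window held 1 AP-1 match, TGAGTCA, at 186 to 180 bases upstream, and 6.57% of windows held an AP-1 match. Only 30 bases around it are printed, since longer PLAUR transcripts in GENCODE 29 place the whole window in an exon. The SERPINE2 stretch belongs to the inner of its 2 RefSeq starts and held 7 NF-Y matches, 1 E-box and 1 SP1 match. NF-Y matches were present in 32% of windows, but 7 or more in only 7 windows (0.0199%). The SERPINE2 stretch is repetitive, so its NF-Y matches are not separate finds. CCAAT began at 215, 138 and 61 bases upstream and its reverse, ATTGG, at 181, 104 and 27, evenly spaced within similar flanks. A further ATTGG began at 250. An E-box was present in 6.35% of windows. The window at the outer SERPINE2 start held 2 SP1 matches and no match to the other 5 motifs, NF-Y and the E-box among them. Like the PLAU stretch shown, it thus held SP1 matches only. A window at a second PLAU start held 1 NF-Y match and no SP1 match. The difference between PLAU and SERPINE2 in these matches therefore depends on the start chosen. The counts do not tell which start was used, and a match is a string of letters, not a bound site.

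The libraries held 15323843 to 18517337 counts in genes. Levels are given in CPM, that is counts per 1000000 counts of the library after TMM scaling. Where a pair of values is joined by ±, it is the mean and SD of the 2 libraries of a group. Log2 fold changes compare TMEM9 KD with WT and come from edgeR's quasi-likelihood test, with p-values adjusted by Benjamini-Hochberg over 14923 genes and a threshold of 0.05. Each SE was derived from the log2 fold change and the F statistic of its test. The labels do not state separate cultures within a group, so the p-values rest on a spread between libraries that may be technical. TMEM9 fell from 79.1 ± 5.92 to 3.79 ± 0.957 CPM (adjusted p = 4.12e-52). Of 14 luminal and line markers, 7 were tested, 3 higher and 3 lower. FOXA1 and GATA3, both called higher, stood at only 2.83 ± 0.153 and 2.56 ± 0.784 CPM in WT. KRT8 stood at 282 ± 13.1 CPM and ERBB2, called lower, at 63.7 ± 0.105 CPM in WT. However KRT19, SPDEF, AGR2, PIP, TFAP2B, EPCAM and CDH1 had 0 to 9 counts in each library, and VIM stood at 1349.5 ± 9.49 CPM, so several epithelial markers were near 0 in libraries labelled as this line. The 10 basal markers tested were all lower in TMEM9 KD, with a summed level of 1172 to 1188 CPM in WT against 698 to 708 CPM. Their falls were uneven, with a median log2 fold change of -3.73. ITGB4 fell from 102 ± 0.426 to 2.62 ± 0.62 CPM, and ITGA6 from 507 ± 4.66 to 431 ± 0.516 CPM. ITGA6 made up much of the summed levels, which therefore hide larger falls. KRT14 had 185 and 307 counts in WT and 0 in both TMEM9 KD libraries. KRT6A had 70 and 128 counts in WT and 0 and 2 in TMEM9 KD. TP63 fell from 155 ± 0.82 to 32.5 ± 1.43 CPM. The part of this basal difference in the results below was not tested. Of 9 fibroblast markers tested, 5 were higher and 4 lower, with summed levels of 3418 to 3466 CPM in WT and 3382 to 3451 CPM in TMEM9 KD. Single genes moved far more than these sums. COL3A1 fell from 957 ± 13.3 to 31.1 ± 4.78 CPM, and COL1A1 rose from 824 ± 11.9 to 1387 ± 122.6 CPM. Of the leukocyte markers CD3E, MS4A1 and LYZ had 0 counts in every library, and the 10 together summed to 15.4 to 16 CPM in WT and 7.05 to 7.21 CPM in TMEM9 KD. The 7 endothelial markers in the table summed to 14.2 to 15.2 and 12.7 to 15.4 CPM, nearly all of it ERG. In bulk RNA, fewer cells of a type and less RNA per cell cannot be told apart.

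PLAU RNA was higher and that of the other 3 members lower in TMEM9 KD, each by less than 1.5-fold. Protein and protease activity were not measured. Of all genes tested, 28.7% were higher and 29% lower, 57.7% in all, so calls were common and a call by itself did not set the members apart. The groups did not overlap in any of the 4 members, as in 77.6% of all genes tested. Tested against a change of 1.5-fold, which 18.8% of genes passed, 0 of the 4 members were called by edgeR and 0 had an unadjusted p below 0.05. Against no change, all 4 were called by edgeR, DESeq2 and limma voom alike. The absolute log2 fold change was larger in 60.5% of genes tested for PLAU, in 34.5% for PLAUR, in 35.1% for SERPINE2 and in 38.9% for PLAT.

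**Figure D1:**
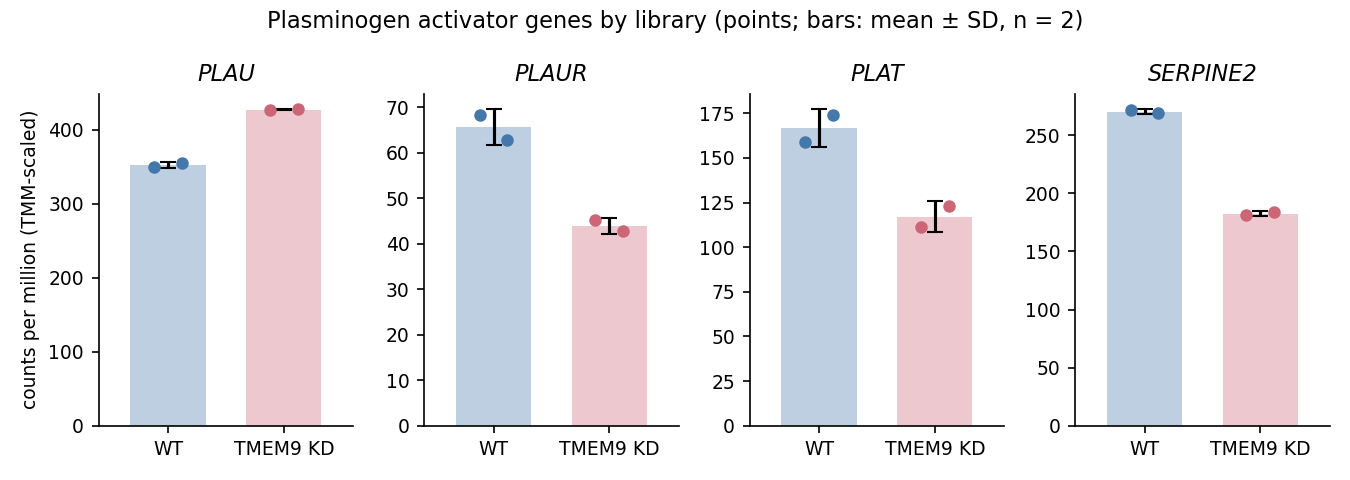
Level of each member in CPM (vertical axes, each from 0) in WT and TMEM9 KD; points are libraries, bars the mean and whiskers the SD of 2 libraries. PLAU points are higher in TMEM9 KD (427 and 428 against 349 and 355 CPM), and those of PLAUR, PLAT and SERPINE2 lower, with no overlap.

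PLAU (ENSG00000122861, chromosome 10), the urokinase gene, stood at 349 and 355 CPM in WT replicates 1 and 2 and at 427 and 428 CPM in TMEM9 KD. Both knockdown libraries lay above both wild-type ones, and the gap was far wider than the spread within either group. PLAU rose 1.21-fold, from 352 ± 4.11 to 427 ± 0.404 CPM (log2 fold change 0.28, SE 0.0551, edgeR adjusted p = 7.79e-06). It rested on 5219 to 7462 counts per library. C10orf55, a gene on the opposite strand, shares 916 bases with PLAU exons, 31.1% of their length. As the strand setting of the counting is not given, reads from the pair cannot be told apart there. C10orf55 itself had 29 to 42 counts per library and was not called (adjusted p = 0.31).

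PLAUR (ENSG00000011422, chromosome 19), the urokinase receptor gene, stood at 68.4 and 62.9 CPM in WT and 45.2 and 42.7 CPM in TMEM9 KD. The receptor transcript thus went opposite to that of its ligand, with the lower wild-type library still above the higher knockdown library. PLAUR fell 1.49-fold, from 65.6 ± 3.93 to 44.0 ± 1.74 CPM (log2 fold change -0.58, SE 0.0838, edgeR adjusted p = 4.2e-09). With 740 to 1130 counts per library, it was the least covered of the 4.

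PLAT (ENSG00000104368, chromosome 8), tissue-type plasminogen activator, stood at 159 and 174 CPM in WT and 111 and 123 CPM in TMEM9 KD. Its replicates lay further apart than those of PLAU and SERPINE2, yet the groups did not overlap. PLAT fell 1.42-fold, from 167 ± 10.7 to 117 ± 8.58 CPM (log2 fold change -0.51, SE 0.0666, edgeR adjusted p = 1.57e-10). The activator transcripts thus moved apart, with PLAU higher and PLAT lower in the same libraries.

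SERPINE2 (ENSG00000135919, chromosome 2), protease nexin 1, stood at 272 and 269 CPM in WT and 181 and 184 CPM in TMEM9 KD. Replicates were close to each other in both groups. SERPINE2 fell 1.48-fold, from 270.3 ± 2.07 to 182 ± 2.07 CPM (log2 fold change -0.57, SE 0.0597, edgeR adjusted p = 2.93e-14). Whether the 7 NF-Y matches at the inner start of SERPINE2 bear on this fall was not tested.

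**Figure D2:**
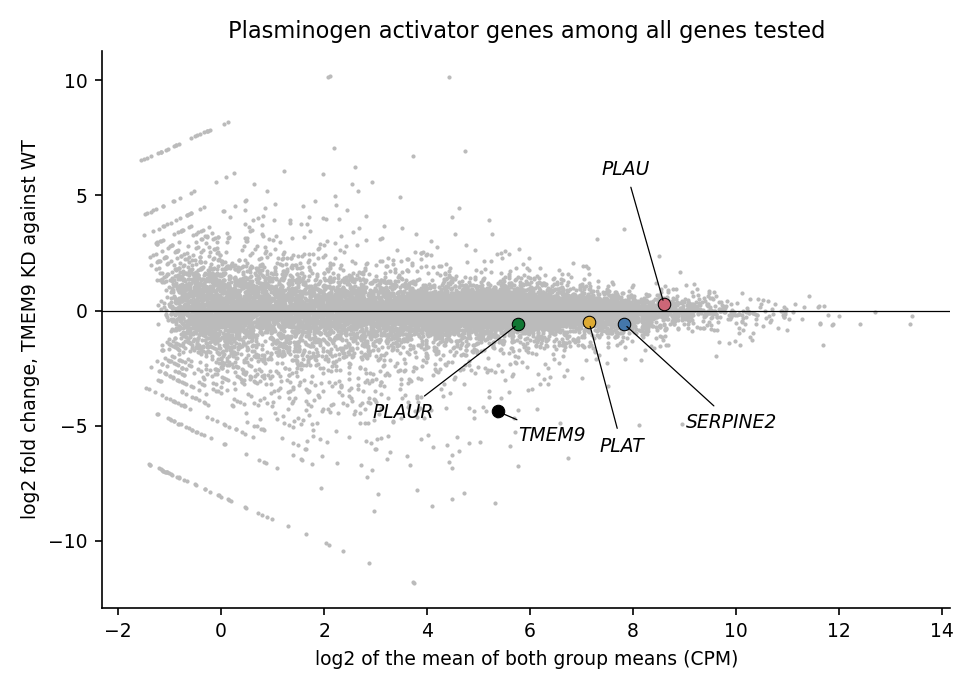
Log2 fold change of TMEM9 KD against WT (vertical axis) by log2 mean CPM (horizontal axis) for the 14923 genes tested (grey points), with the 4 members and TMEM9 marked. The members sit at high levels and between -0.58 and 0.28, close to the zero line compared with TMEM9 at -4.37.

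To compare levels between genes, counts were divided by the length of the longest protein-coding transcript in GENCODE 29 and scaled to TPM, transcripts per 1000000 transcripts of the library. PLAU had the highest level per length of the 4, at 329 and 334 TPM in WT and 434 in each knockdown library. SERPINE2 followed with 265 and 261 TPM in WT and 190.5 and 193 TPM in TMEM9 KD. PLAT came next, at 147 and 161 TPM in WT and 111 and 123 TPM in TMEM9 KD. PLAUR was lowest, at 107 and 97.5 TPM in WT and 75.9 and 71.6 TPM in TMEM9 KD. Neighbours in this order did not overlap within a group. The order was the same in all 4 libraries with exon union lengths. These lengths brought SERPINE2 (115 and 113 TPM in WT) closer to PLAT (90.3 and 98.6 TPM). By TPM, PLAU ranked between 294 and 404 among 45341 genes in the 4 libraries, and PLAUR between 1591 and 2607.

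The balance between the transcripts of the members was read within each library, where scaling between libraries plays no part. Per length, the ratio of PLAU to SERPINE2 was 1.24 and 1.28 in WT and 2.28 and 2.25 in TMEM9 KD. The log2 difference was 0.85, against a pooled SD of 0.0224 within groups. With 2 libraries against 2, an exact two-sided permutation test cannot go below p = 0.333, so ratios are given as values with no test. Per receptor transcript, PLAU went from 3.09 and 3.42 to 5.72 and 6.06. Per PLAT transcript, PLAU went from 2.23 and 2.07 to 3.91 and 3.53. PLAT to SERPINE2 overlapped between the groups, at 0.556 and 0.615 in WT and 0.583 and 0.636 in TMEM9 KD. With exon union lengths the ratios had much larger absolute values for PLAU over SERPINE2 or PLAUR, but the log2 differences between groups stayed the same. In WT replicate 1, PLAU, SERPINE2 and PLAUR stood at 445, 115 and 57.7 TPM by exon union. By transcript length they stood at 329, 265 and 107 TPM. The absolute ratios thus depend on the length chosen.

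**Figure D3:**
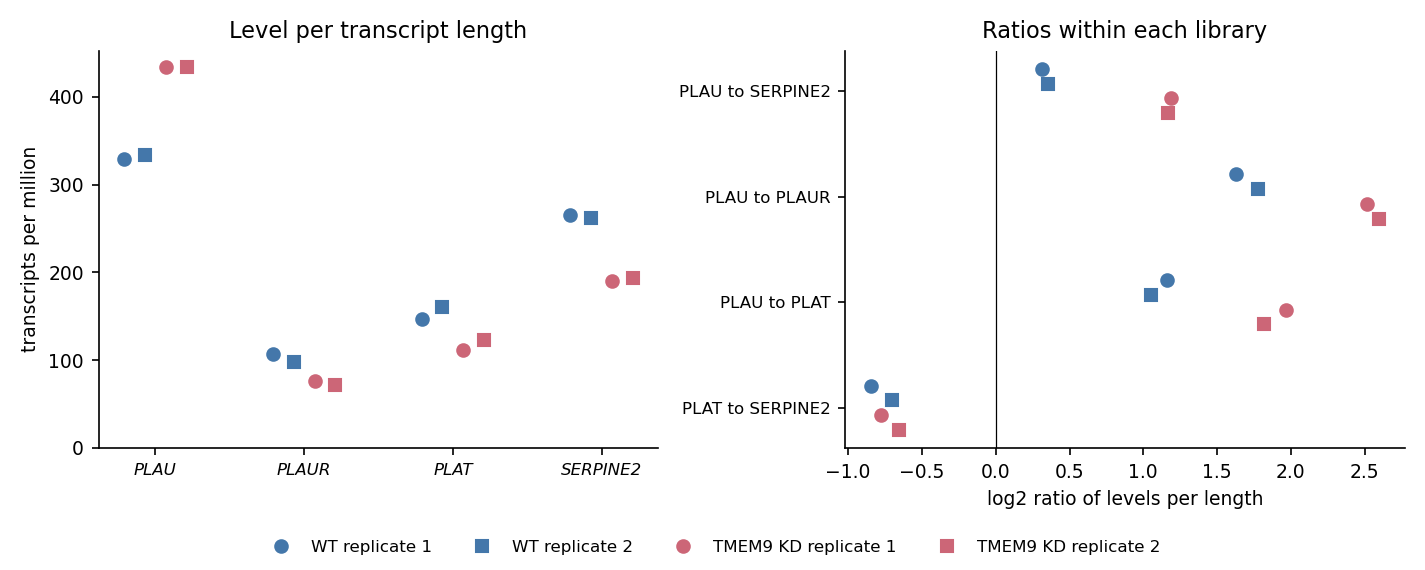
Left, TPM (vertical axis) of the 4 members in each library; right, log2 ratios of levels per length (horizontal axis) for pairs of these genes. Blue is WT, red TMEM9 KD, circles replicate 1 and squares replicate 2. The 3 ratios with PLAU on top lie further right in TMEM9 KD, and PLAT to SERPINE2 overlaps.

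The genes of most similar pattern were sought among the 10694 genes tested that had a symbol and a mean of at least 5 CPM. Likeness was the root mean square distance of centred log2 CPM over the 4 libraries. Nearest to PLAU were DNER (0.00405), RBBP5 (0.00486) and TMEM19 (0.00552). For PLAUR they were NBEA (0.00275), LINC-PINT (0.0113) and KIAA2026 (0.0133), for PLAT NUCB1 (0.0142), TMEM164 (0.0147) and SH3RF2 (0.0150), and for SERPINE2 FBXO32 (0.00787), UQCRB (0.00926) and WLS (0.0104). With 4 libraries in 2 groups such patterns are common. Within a distance of 0.05 lay 527 genes for PLAU, 176 for SERPINE2, 106 for PLAUR and 66 for PLAT.

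Around the members, 106 other genes were listed by role and are called system genes here. The lists reach beyond the plasminogen system itself, to promoter regulators, relatives of PLAUR by domain and genes linked to thrombin. Of the 106 genes, 104 were in the table and 72 could be tested. Of these, 48 were lower and 11 higher in TMEM9 KD (66.7% and 15.3%, against 29% and 28.7% of all genes tested), and their median log2 fold change was -0.47 against 0.01 over all genes. Among those with a mean of at least 5 CPM, 44 of 62 were lower (71%, against 31.5% of all such genes). The lists were chosen with earlier results known, and no test of the lists as sets was made. The other 32 genes had at most 14 counts in any library.

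**Figure D4:**
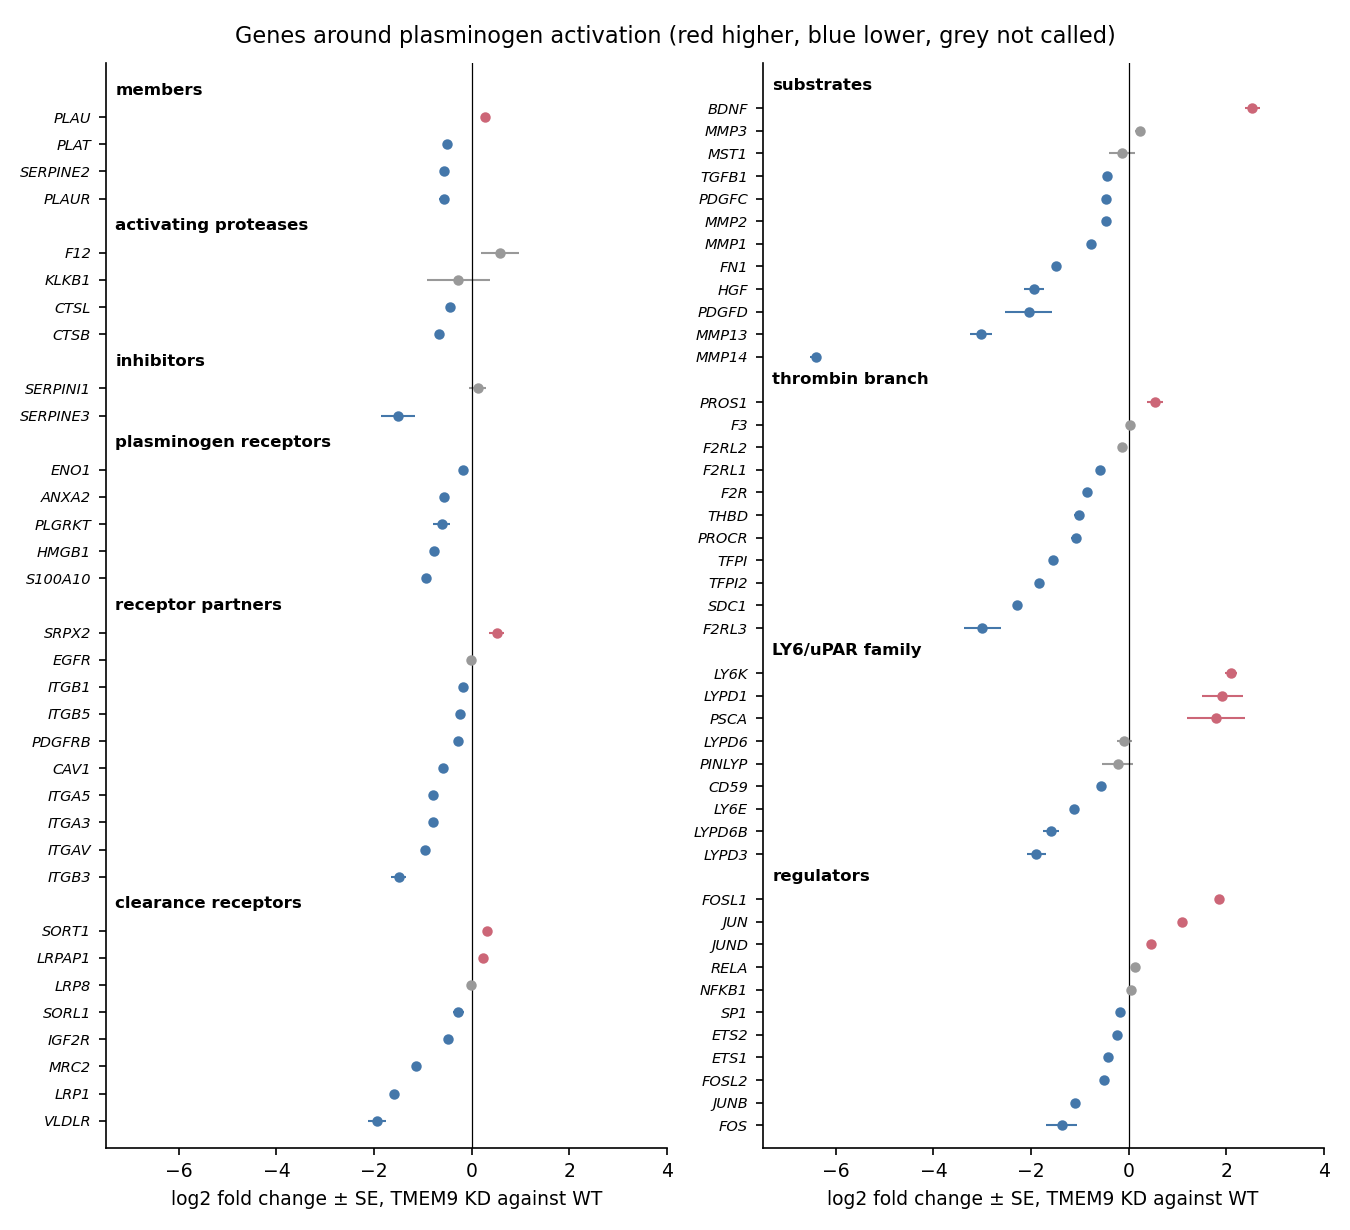
Log2 fold change ± SE of TMEM9 KD against WT (horizontal axis) for each gene tested, grouped by role; red was higher, blue lower and grey not called by edgeR. Most groups lie to the left, with MMP14 at -6.41 furthest, while BDNF (2.53) and FOSL1 (1.84) lie to the right.

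The zymogen was barely transcribed in these cells. PLG had 0 counts in both WT libraries and 1 and 4 in TMEM9 KD, where 3 counts correspond to 0.167 to 0.201 CPM. The fibrinogen genes FGA, FGB and FGG had 0 to 4 counts and prothrombin (F2) 0 to 4. Of 11 genes for the zymogen and its activating proteases, 4 were tested, of which 2 were lower and 0 higher. These were the lysosomal proteases CTSB and CTSL, which can activate pro-urokinase. CTSB fell from 413 ± 14.1 to 258 ± 0.324 CPM and CTSL from 122 ± 0.398 to 89.4 ± 1.06 CPM. The surface proteases matriptase (ST14) and hepsin (HPN) had 0 to 3 counts in a library.

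Among 8 other inhibitors, 2 were tested, with 1 lower and 1 not called. SERPINE3, a little-studied relative, fell from 3.22 ± 0.0115 to 1.12 ± 0.117 CPM. Neuroserpin (SERPINI1), an inhibitor of PLAT, stood at 7.6 ± 0.817 and 8.32 ± 0.669 CPM (adjusted p = 0.569). SERPINB2, plasminogen activator inhibitor 2, had 0 counts in WT and 2 and 5 in TMEM9 KD, and antiplasmin (SERPINF2) 0 to 3 in a library.

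Of 6 plasminogen receptor genes, 5 were tested, and 5 fell and 0 rose (median -0.62). Annexin A2 (ANXA2) and its partner S100A10, which together bind plasminogen at the surface, fell from 1596 ± 16.8 to 1075 ± 2.38 CPM and from 270.3 ± 4.18 to 142 ± 6 CPM. PLGRKT, a transmembrane plasminogen receptor, fell from 10.2 ± 1.25 to 6.71 ± 0.0947 CPM, a call that was lost when WT replicate 2 was left out (edgeR adjusted p = 0.0703). HMGB1 fell by 0.76 (log2) and enolase (ENO1) by 0.17. ENO1 was not called without WT replicate 1 (adjusted p = 0.0815, edgeR) or without WT replicate 2 (0.161), which left 3 of the 5 called in the latter case.

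Of 14 genes for partners of the urokinase receptor, 10 were tested, of which 8 fell and 1 rose (median -0.43). PLAUR has no cytoplasmic part and signals through integrins, and all 6 integrin genes tested were called lower with all libraries. The calls of ITGB1 (log2 fold change -0.17) and ITGB5 (-0.23) were lost without WT replicate 2 (edgeR adjusted p = 0.147 and 0.112), and that of ITGB1 also without WT replicate 1 (0.0857). ITGB3, a vitronectin receptor subunit, fell from 20.9 ± 0.658 to 7.39 ± 1.38 CPM and its partner ITGAV from 321 ± 2.76 to 165 ± 9.24 CPM. ITGA3 fell from 935 ± 17.4 to 537 ± 44.2 CPM and ITGA5 from 495 ± 13.2 to 288 ± 11.9 CPM. SRPX2, a secreted ligand of PLAUR, rose from 9.23 ± 1.41 to 13.1 ± 0.243 CPM, though it was not called without WT replicate 2. EGFR stood at 257 ± 6.07 and 256 ± 4.74 CPM (adjusted p = 0.957).

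Among genes for the clearance of activator and serpin complexes, 5 of 8 tested were lower and 2 higher (median -0.37). LRP1, the main endocytic receptor for complexes of urokinase with serpins, stood at 277 and 274 CPM in WT and 82.8 and 100.7 CPM in TMEM9 KD. Its mean fell from 276 ± 2.02 to 91.7 ± 12.7 CPM, or by 1.59 on the log2 scale (SE 0.0669, edgeR adjusted p = 6.2e-39). VLDLR, a related receptor, fell from 13.7 ± 1.18 to 3.58 ± 0.12 CPM, and MRC2, a collagen receptor that associates with PLAUR, from 277 ± 12.1 to 126 ± 9.71 CPM. IGF2R, a receptor for lysosomal enzymes that can bind PLAUR, fell from 303 ± 1.64 to 218 ± 15.9 CPM. The sorting receptor SORT1 rose from 61.0 ± 1.35 to 76.4 ± 0.946 CPM. The other gene that rose was LRPAP1, a chaperone of these receptors and not a clearance receptor itself, from 83.5 ± 4.54 to 97.6 ± 6.91 CPM. It was not called without WT replicate 2 (edgeR adjusted p = 0.249) or without TMEM9_KD replicate 2 (0.06), and SORL1, one of the 5 lower, was not called without WT replicate 1, without WT replicate 2 or without TMEM9_KD replicate 2. LRP8 stood at 53.2 ± 0.0783 and 52.9 ± 5.09 CPM (adjusted p = 0.952).

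Substrates of plasmin and the activators were lower in 9 of 12 tested and higher in 1 (median -0.61). The membrane protease MMP14 fell from 211 ± 2.17 to 2.48 ± 0.139 CPM and the collagenase MMP13 from 12.8 ± 0.274 to 1.57 ± 0.0546 CPM. Fibronectin (FN1) fell from 4905 ± 60.02 to 1737 ± 109.7 CPM. PDGFD, a growth factor activated by urokinase, fell from 2.0 ± 0.389 to 0.481 ± 0.356 CPM, and PDGFC, activated by PLAT, from 128 ± 6.85 to 93.4 ± 0.499 CPM. The log2 fold change of PDGFD, -2.05 on 4 to 34 counts, was -3.07 without TMEM9_KD replicate 1 and -1.44 without TMEM9_KD replicate 2. HGF fell from 11.1 ± 1.13 to 2.93 ± 1.3 CPM. The neurotrophin gene BDNF, whose precursor plasmin cleaves, rose from 4.46 ± 0.537 to 26.0 ± 0.339 CPM.

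SERPINE2 is also a thrombin inhibitor, and of 11 genes tested in that branch 8 fell and 1 rose (median -1.02). The thrombin receptor gene F2R fell by 0.85 (log2), on 3571 to 7213 counts per library. F2RL3 fell by 3.0, on only 9 to 71 counts. Syndecan 1 (SDC1), a heparan sulphate proteoglycan, fell from 302 ± 2.01 to 61.6 ± 1.23 CPM. The clotting inhibitors TFPI and TFPI2 fell from 209.9 ± 5.81 to 71.9 ± 8.27 CPM and from 103 ± 1.45 to 29.04 ± 3.07 CPM. Tissue factor (F3) stood at 137 ± 7.2 and 140 ± 0.439 CPM (adjusted p = 0.756). PROS1, the gene that rose, from 7.77 ± 0.966 to 11.4 ± 1.6 CPM, was not called without WT replicate 1 or without TMEM9_KD replicate 1.

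PLAUR belongs to the LY6/uPAR domain family, of which 9 other genes were tested, with 4 lower and 3 higher (median -0.22). LYPD3, a gene that lies on chromosome 19 like PLAUR, fell from 10.99 ± 0.826 to 2.96 ± 0.301 CPM. The complement regulator CD59 fell from 466 ± 1.93 to 314 ± 3.27 CPM. LY6K rose from 10.4 ± 1.39 to 44.4 ± 4.89 CPM and LYPD1 from 0.730 ± 0.481 to 2.69 ± 0.164 CPM. The log2 fold change of LYPD1, 1.92 on 7 to 46 counts, was 2.76 without WT replicate 1 and 1.32 without WT replicate 2. PSCA rose by 1.79 on the log2 scale on 3 to 21 counts, and its call ended under DESeq2 (adjusted p = 0.0774) and without WT replicate 1 (0.143) or TMEM9_KD replicate 2 (0.133).

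Regulators known to act on the promoters of these genes were lower in 6 of 11 and higher in 3 (median -0.17). The AP-1 subunits split. FOSL1 rose from 61.0 ± 2.81 to 219 ± 12.9 CPM and JUN from 80.6 ± 5.08 to 172 ± 12.9 CPM, while FOS fell from 4.0 ± 0.391 to 1.54 ± 0.321 CPM and JUNB from 91.2 ± 0.892 to 42.6 ± 4.97 CPM. ETS1 fell by 0.42 (log2) and ETS2 by 0.24. SP1, whose motif was searched above, fell from 143 ± 2.27 to 127 ± 3.42 CPM (log2 fold change -0.17, edgeR adjusted p = 0.0209), a call lost without WT replicate 1 (0.227) or WT replicate 2 (0.138). The NF-kB subunit RELA stood at 95.6 ± 2.88 and 104 ± 5.11 CPM and was not called (adjusted p = 0.121). No binding was measured, so these levels say nothing of what occupies the matches upstream of the members.

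**Figure D5:**
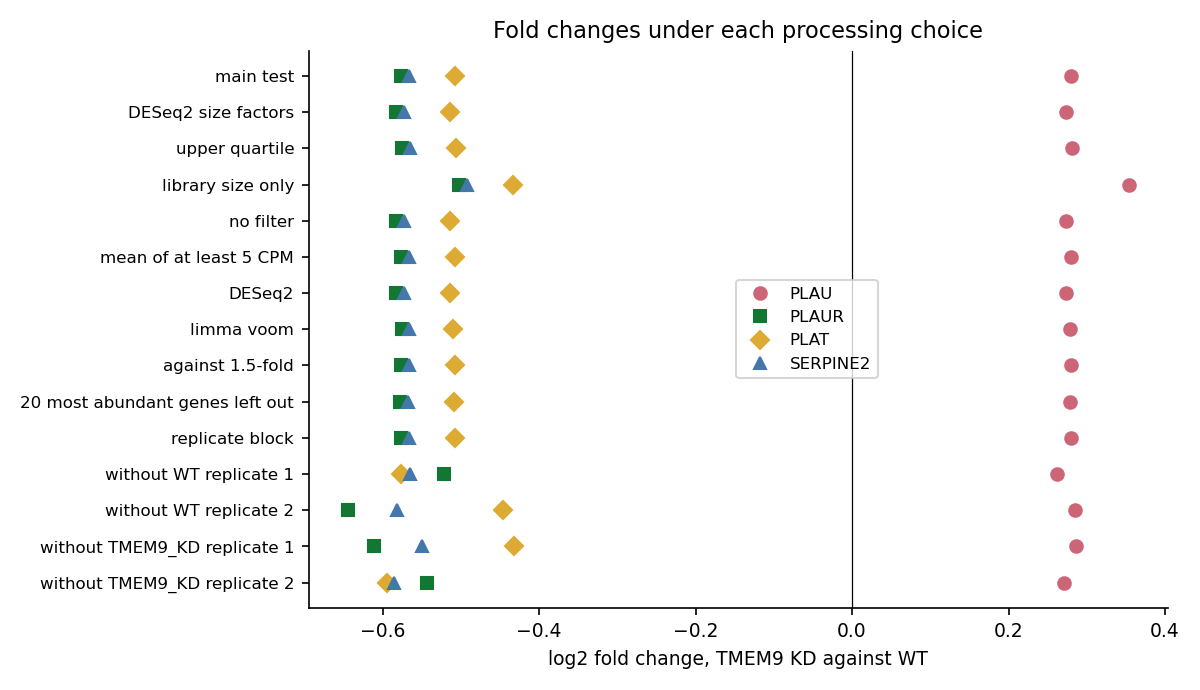
Log2 fold change of each member (horizontal axis) under the main test and 14 other processing choices (vertical axis). PLAU stays to the right of zero (0.26 to 0.35) and PLAUR, PLAT and SERPINE2 to the left (-0.64 to -0.43).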

How the data were processed

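RNA of 4 libraries was sequenced. The authors deposited raw counts per gene, per the file headers. Bowtie 0.12.2, CASAVA, hg19 and mm8 appear in the submitters' processing notes, which give them no role. No source used here names the counting tool, annotation or strand setting. Groups came from the sample titles, and every column belonged to a sample.

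Counts were tested with edgeR 4.0.16 in R 4.3.3 (TMM factors, filterByExpr with a minimum count of 10 and total of 15, quasi-likelihood F test, group as the only term, 2 residual degrees of freedom, common biological coefficient of variation 0.0498). The script was tested on simulated data. DESeq2 1.42.0, limma 3.58.1 (voom), a replicate block, other scalings, other filters and fits without 1 library were alternatives. Symbols were found for 45342 genes. GENCODE 29, which may rest on another build than the counts, gave lengths, chromosomes and overlaps.

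The members, lists, motifs and tests were chosen with earlier results of these data known. From each list of system genes, up to 4 called genes with the largest absolute change were named, plus genes needed by role. The marker lists are given by counts and summed levels, with only some genes named. A few genes, some of them inhibitors and receptors of the system, are not reported here and were left out of the lists. Libraries of a group differed by more than sampling noise (chi-square over degrees of freedom 2.04 for WT and 4.82 for TMEM9 KD, over genes whose pair summed to 20 counts or more). Each was kept as a replicate, but such excess spread can also be technical and does not show separate cultures.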

Additional observations from a re-analysis of the deposited data

How the results depend on the processing

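All 4 members kept their direction under all 14 alternatives and their call under 13. The exception was the test against 1.5-fold, with unchanged log2 fold changes of 0.28 for PLAU (adjusted p = 1), -0.58 for PLAUR (0.812), -0.51 for PLAT (1) and -0.57 for SERPINE2 (0.954). That test also left 1111 higher and 1692 lower of all genes, and 6 higher and 28 lower of the listed system genes. Leaving out each library gave 0.26 to 0.29 for PLAU (highest adjusted p = 0.0236, without WT replicate 1), -0.64 to -0.52 for PLAUR, -0.59 to -0.43 for PLAT and -0.59 to -0.55 for SERPINE2. The lone library of a group was then assumed to vary like the other group. The log2 difference in PLAU to SERPINE2 ran from 0.83 to 0.87. Scaling by library size only gave the highest PLAU value, 0.35, with the median of all genes at 0.08.

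Of the 59 system genes called, 51 to 58 kept direction and call when a library was left out, 57 under DESeq2 and 59 with the replicate block, and 0 changed sign under any alternative. The replicate numbers of the libraries are not stated to pair them. Deviations of same-numbered libraries had a correlation of 0.000474, and with the replicate block PLAU had an adjusted p of 2.86e-05. The block changed no call of a member and left 4171 genes higher and 4266 lower. The 32 genes that were not tested had at most 14 counts in a library and did not pass the filter, so their change was not assessed.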
